A study of Mus musculus with 7 samples.

Results

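Metalloproteinases and their inhibitors comprised every protein-coding gene whose symbol starts with Mmp, Adam, Adamts, Adamtsl or Timp followed by a digit, which gave 83 of the 56953 genes in the deposited count files. They divided into 22 Mmp, 33 Adam, 19 Adamts, 5 Adamtsl and 4 Timp genes. Of the 84 rows with such a symbol, 1, Mmp1a, was left out because the symbol annotation gives it as a polymorphic pseudogene. RNA came from B16 tumours, grown from a transplantable mouse melanoma line, and the cells were sorted as live cells lacking the leukocyte marker CD45 and the endothelial marker CD31. The 2 groups were mice given radiotherapy (RT) of 8 Gy with AAV-iIL12 (3 libraries) and mice given the same radiotherapy with AAV-iLuc (4 libraries), both sampled 5 days after treatment. AAV is adeno-associated virus, a gene delivery vector, and AAV-iIL12 is named for the cytokine interleukin 12. All mice carried B16 tumours and all were irradiated, so the vector is the difference the treatment labels give. The titles of the AAV-iIL12 libraries also hold the letters WT, which the control titles lack, and the labels used here give neither strain nor age of the mice.

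Matrix metalloproteinases (MMPs) are zinc-dependent enzymes that cut collagens and other matrix proteins, either secreted or held at the cell surface as membrane-type enzymes. ADAMs are membrane proteins, and those with a catalytic site release the outer domains of growth factors, receptors and adhesion molecules. ADAMTS enzymes are secreted and cut proteoglycans, procollagens or von Willebrand factor, ADAMTS-like proteins share their structure without the protease domain, and TIMPs are the secreted tissue inhibitors of these enzymes. In melanoma the families are known for pericellular matrix breakdown during invasion and for shedding of cell surface ligands.

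Upstream regions of 4 members are shown because their genes had the smallest adjusted p of the tested members (Mmp15), the largest fall among Adamts genes (Adamts20) and the highest level (Adamts1), or fell within a block of neighbouring Mmp genes on chromosome 9 (Mmp3). They are the 250 bases before the annotated transcript start in the RefSeq annotation of GRCm38.p6, 5′ to 3′ on the gene's strand, with matches to the searched motifs in capitals.
Mmp15, chr8:95352046-95352295, + strand: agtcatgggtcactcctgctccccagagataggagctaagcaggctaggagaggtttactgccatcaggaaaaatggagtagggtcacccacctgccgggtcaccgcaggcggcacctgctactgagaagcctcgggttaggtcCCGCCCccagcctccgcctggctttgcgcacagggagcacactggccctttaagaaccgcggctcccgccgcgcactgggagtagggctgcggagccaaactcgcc
Adamts20, chr15:94404351-94404600, - strand: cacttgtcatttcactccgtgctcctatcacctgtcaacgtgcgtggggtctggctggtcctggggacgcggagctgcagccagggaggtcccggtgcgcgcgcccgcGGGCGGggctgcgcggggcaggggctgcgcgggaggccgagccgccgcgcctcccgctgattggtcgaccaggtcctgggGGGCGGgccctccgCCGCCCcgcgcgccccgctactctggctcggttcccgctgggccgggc
Adamts1, chr16:85803114-85803363, - strand: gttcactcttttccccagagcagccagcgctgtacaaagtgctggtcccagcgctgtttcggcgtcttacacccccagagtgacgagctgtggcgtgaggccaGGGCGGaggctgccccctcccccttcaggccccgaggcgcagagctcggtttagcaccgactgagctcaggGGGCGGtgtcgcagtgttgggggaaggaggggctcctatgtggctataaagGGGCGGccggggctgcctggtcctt
Mmp3, chr9:7445572-7445821, + strand: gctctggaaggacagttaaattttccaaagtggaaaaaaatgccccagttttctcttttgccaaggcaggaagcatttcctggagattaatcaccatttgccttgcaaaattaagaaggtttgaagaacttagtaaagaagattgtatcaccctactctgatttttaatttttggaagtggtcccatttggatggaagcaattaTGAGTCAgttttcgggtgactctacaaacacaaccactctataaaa
The capitals mark GC boxes (GGGCGG, or CCGCCC where the match is on the other strand, the core recognised by Sp1-family factors) in Mmp15, Adamts20 and Adamts1 and an AP-1 motif (TGANTCA) in Mmp3. The GC box of Mmp15 began 106 bases before the start, those of Adamts20 began 142, 62 and 48 bases before it, and those of Adamts1 began 147, 76 and 25 bases before it. The AP-1 motif of Mmp3 began 46 bases before the start.

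RefSeq upstream regions were found for 52 of the 83 members. On either strand, the AP-1 motif was present in 11 of these 52 members (21.2%) and in 7.82% of all 27025 genes with such a region. Of the 9 Mmp genes in the chromosome 9 block, 7 held it. Among tested members with a region, the AP-1 motif was in 0 of 5 that rose, 2 of 12 that fell and 1 of 11 not past the threshold. The other members that held it were not tested. The GC box was in 24 of 52 members (46.2%) against 35.4% of all genes. Among tested members with a region it was in 3 of 5 that rose, 6 of 12 that fell and 10 of 11 not past the threshold. The interferon gamma activated site (GAS, TTCNNNGAA) was in 3 members against 8.13% of all genes, and the core of the interferon-stimulated response element (ISRE) in 1 member against 3.46%. An E-box (CACGTG) was in 5 members against 6.86%, a cyclic AMP response element (TGACGTCA) in 0 against 1.77%, and an E2F motif (TTTNGCGC) in 1 against 1.31%. These are letter matches in the window, not tests of binding.

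Total counts ranged from 16356653 to 19080587 per library. Levels are given as CPM (the count of a gene over the library total, scaled between libraries by the trimmed mean of M values, TMM) within a gene, and as RPKM (the same values divided by exon length in kilobases) where genes are compared. Fold changes are log2 values of AAV-iIL12 over AAV-iLuc from edgeR's quasi-likelihood test, with the standard error, and a gene was called when its p, adjusted over all tested genes by Benjamini-Hochberg, was under 0.05. Of the 83 members, 42 passed the low-count filter and were tested: 8 rose and 19 fell with AAV-iIL12, and 15 were not past the threshold. With library size only as the scaling 6 rose and 21 fell, and with upper quartile scaling 7 rose and 21 fell. Over all 13990 genes tested 47.2% were called, 23.5% as higher and 23.7% as lower. The members' counts are read against those shares. The median log2 fold change was -0.20 over the tested members and -0.01 over all tested genes. At a fold of at least 2, 3 members rose against 5.84% of all tested genes, and 7 fell against 4.67%. The values of the groups did not overlap for 28 members, 9 higher and 19 lower in AAV-iIL12, beside 52.5% of all tested genes (25.9% higher and 26.7% lower). In bulk RNA, fewer cells of a type and less RNA per cell cannot be told apart.

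**Figure D1:**
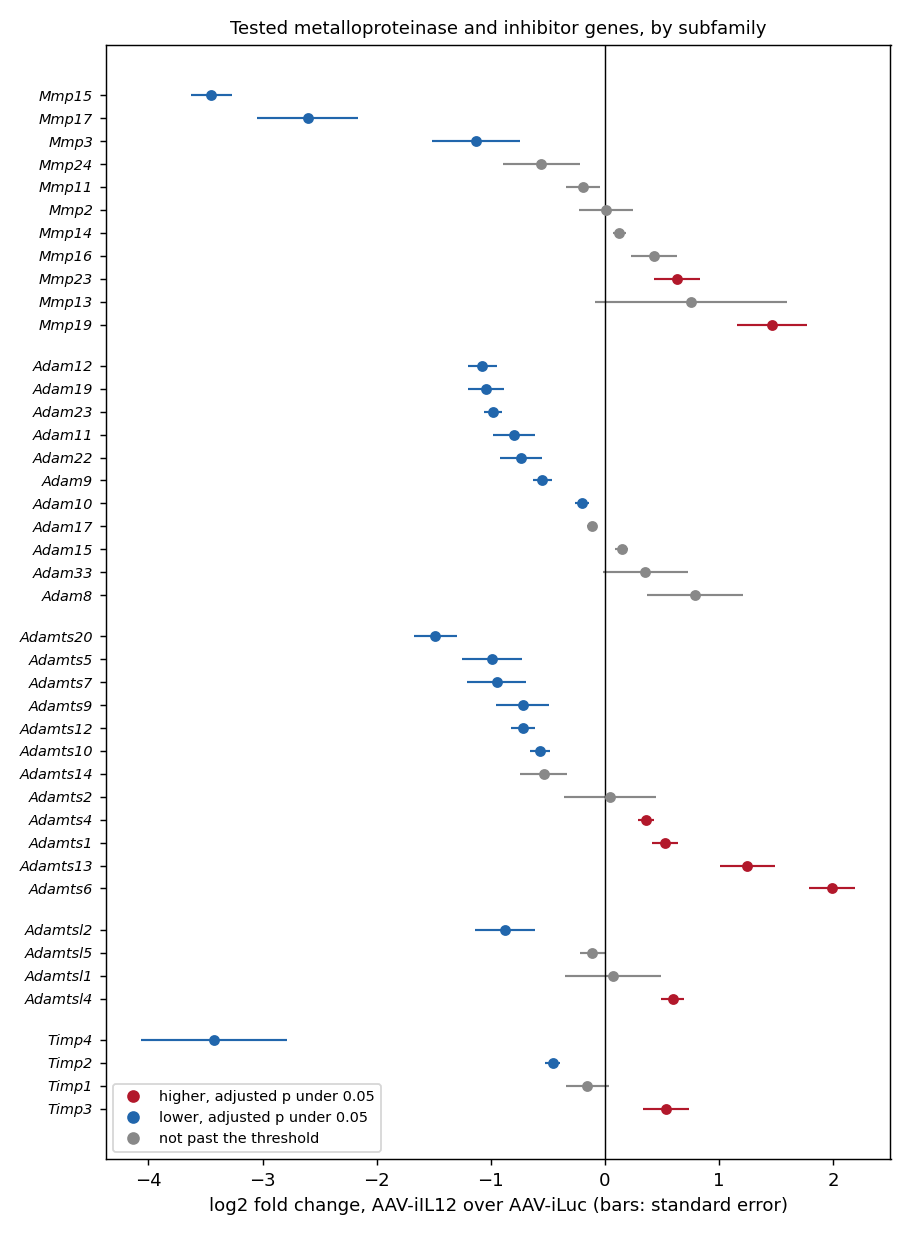
Log2 fold change of AAV-iIL12 over AAV-iLuc for the 42 tested members, grouped by subfamily, with bars for the standard error and colour for the call. Mmp15 lies furthest to the left at -3.45 and Adamts6 furthest to the right at 1.99.

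Adamts1 had the highest mean RPKM over the 7 libraries (100.3), followed by Adam9 (67.4), Timp2 (58.5), Adam10 (43.1) and Mmp14 (41.7). Within AAV-iLuc, Adamts1 at 84.4 ± 13.0 RPKM (SD, n = 4) and Adam9 at 78.0 ± 5.28 RPKM overlapped in their library values (71.9 to 100.5 RPKM and 73.0 to 83.1 RPKM), while within AAV-iIL12 Adamts1 stood at 121 ± 11.5 RPKM (SD, n = 3) and Adam9 at 53.3 ± 5.33. Summed CPM of the Adam genes was 770 ± 69.3 (SD, n = 3) in AAV-iIL12 and 1099 ± 23.1 (SD, n = 4) in AAV-iLuc. The Adamts sum ran the other way, 852 ± 79.6 against 665 ± 66.1 CPM. The Timp sum was 267 ± 18.2 against 331 ± 20.6 CPM, the Adamtsl sum 86.1 ± 3.67 against 64.4 ± 7.12 CPM and the Mmp sum 292 ± 3.54 against 278 ± 10.6 CPM. Adamts1, Timp2, Adamtsl4 and Mmp14 were the largest parts of the Adamts, Timp, Adamtsl and Mmp sums. Mean CPM was 644 in AAV-iIL12 and 447 in AAV-iLuc for Adamts1, 204 and 280 for Timp2, and 72.2 and 47.8 for Adamtsl4. The direction of the Adamts, Timp and Adamtsl sums therefore rests on 1 gene each and is not a shift shared by the subfamily. Most of the difference in the Adam sum came from Adam12 (mean 141 CPM in AAV-iIL12 and 298 in AAV-iLuc) and Adam9 (220 and 321 CPM).

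**Figure D2:**
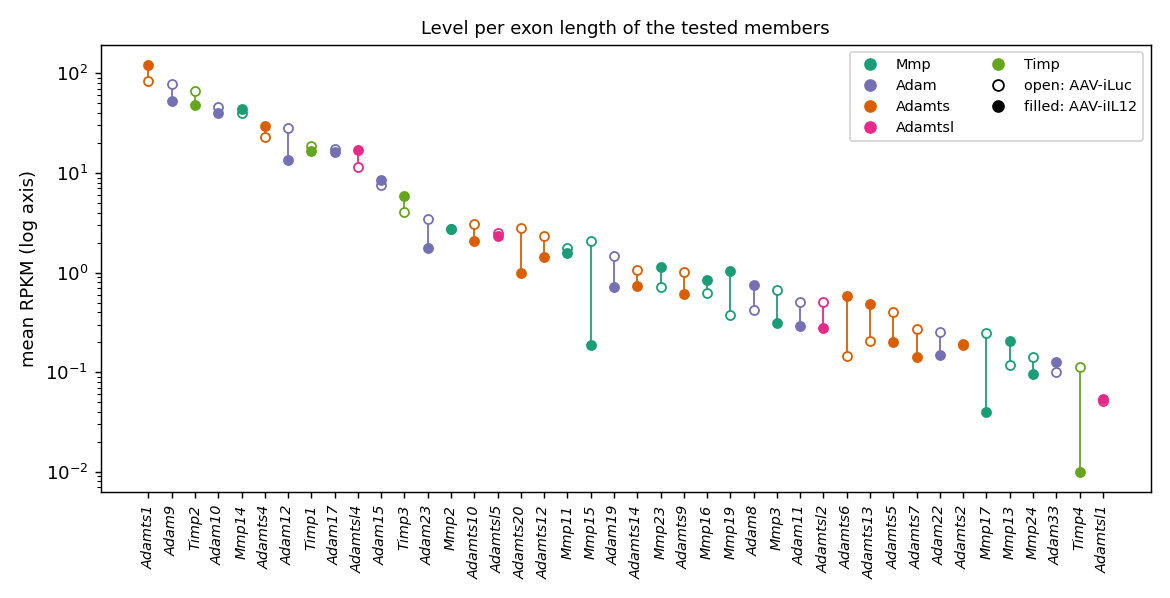
Mean RPKM on a log axis of the 42 tested members, ordered by level, with open points for AAV-iLuc and filled points for AAV-iIL12. Adamts1 is the highest member at 100.3 RPKM over all 7 libraries, and the filled point of Mmp15 (0.187 ± 0.0453 RPKM) lies far below its open point (2.07 ± 0.216 RPKM).

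Among the membrane-type MMPs (Mmp14, Mmp15, Mmp16, Mmp17, Mmp24 and Mmp25), which act at the cell surface, 5 of 6 were tested, 2 fell and none rose. Mmp23, which is also membrane-bound, was not counted in this group, and it rose. Mmp15 (MT2-MMP; ENSMUSG00000031790, chromosome 8, 96078896 to 96101708 on GRCm39) was measured at 0.731, 1.19 and 1.10 CPM in the 3 AAV-iIL12 libraries and 9.83, 12.4, 11.9 and 10.6 CPM in the 4 AAV-iLuc libraries. Every AAV-iIL12 library lay far below every control library. Its log2 fold change was -3.45 ± 0.18 (SE; edgeR adjusted p = 1.19e-06), the smallest p of any tested member, and ranged from -3.58 to -3.27 over the 15 alternative analyses. Mmp17 (MT4-MMP, held by a glycosylphosphatidylinositol anchor; ENSMUSG00000029436, chromosome 5, 129661233 to 129688163) was measured at 0.183, 0.217 and 0.385 CPM with AAV-iIL12 and 0.832, 1.70, 2.03 and 2.01 CPM with AAV-iLuc. It was a low gene with no overlap between groups, and fell by 2.60 on the log2 scale (SE 0.44; edgeR adjusted p = 0.000872).

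Mmp14 (MT1-MMP, which activates the precursor of MMP2 in a complex with TIMP2; ENSMUSG00000000957, chromosome 14, 54669069 to 54682821) was the most abundant MMP. It was measured at 252, 263 and 269 CPM with AAV-iIL12 and 228, 245, 234 and 249.6 CPM with AAV-iLuc. The AAV-iIL12 libraries were all slightly higher, yet the difference of 0.13 ± 0.06 was not past the threshold (edgeR adjusted p = 0.0869). With library size only as the scaling it was 0.036, and DESeq2 called it (adjusted p = 0.0482). Mmp16 and Mmp24, the remaining tested membrane-type enzymes, had overlapping groups, with log2 differences of 0.43 ± 0.20 (edgeR adjusted p = 0.103) and -0.56 ± 0.34 (edgeR adjusted p = 0.200). Mmp16 was called higher without AAV-iIL12 replicate 2 (0.60, edgeR adjusted p = 0.0345) and without AAV-iLuc replicate 4 (0.57, edgeR adjusted p = 0.0440), with adjusted p from 0.0345 to 0.321 over the alternatives.

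Of the secreted MMPs, Mmp19 and Mmp3 moved in opposite directions. Mmp19 (ENSMUSG00000025355, chromosome 10, 128626779 to 128636693) was measured at 5.48, 2.99 and 2.53 CPM with AAV-iIL12 and 1.72, 1.15, 1.31 and 1.08 CPM with AAV-iLuc. Library 1 of AAV-iIL12 was the highest, and all 3 exceeded the controls. The gene rose by 1.47 ± 0.30 (edgeR adjusted p = 0.00286). Mmp3 (stromelysin 1, which cuts proteoglycans and activates other MMP precursors; ENSMUSG00000043613, chromosome 9, 7445822 to 7455975) was measured at 0.792, 0.380 and 0.494 CPM with AAV-iIL12 and 1.04, 1.86, 1.07 and 0.876 CPM with AAV-iLuc. The groups were apart but their edges lay close, and the fall was -1.13 ± 0.38 (edgeR adjusted p = 0.0333). The call was lost without AAV-iIL12 replicate 2 (-0.91, edgeR adjusted p = 0.126), AAV-iIL12 replicate 3 or AAV-iLuc replicate 2, with adjusted p from 0.0219 to 0.126 over the alternatives. 

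Mmp23, a membrane-bound enzyme without the hemopexin domain of most MMPs, rose from 1.69 ± 0.293 CPM (SD, n = 4) to 2.63 ± 0.271 CPM (SD, n = 3), a log2 fold change of 0.63 ± 0.21 (edgeR adjusted p = 0.0280). This call was lost under 8 of the 15 alternatives, with adjusted p from 0.0163 to 0.0951. Mmp2, gelatinase A, was measured at 12.7, 8.04 and 7.03 CPM with AAV-iIL12 and 7.07, 8.83, 12.6 and 8.25 CPM with AAV-iLuc. The groups overlapped widely, and its difference of 0.01 ± 0.24 was not past the threshold (edgeR adjusted p = 0.975) and was -0.080 with library size only as the scaling. The summed CPM of 12 fibroblast marker genes ran from 68.0 to 180 in AAV-iIL12 and from 94.4 to 306 in AAV-iLuc, and its part in the Mmp2 and Timp1 values was not tested. Of these markers, 11 were tested and 0 were called by edgeR.

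The block of 9 neighbouring Mmp genes on chromosome 9 (7272514 to 7699586 on GRCm39) holds Mmp13, Mmp12, Mmp1b, Mmp3, Mmp10, Mmp8, Mmp27, Mmp20 and Mmp7. In these sorted cells 2 of the 9, Mmp3 and Mmp13, were tested and 3 had no count in any library. Mmp13, the collagenase of the tested set, had 12, 1 and 16 counts with AAV-iIL12 and 14, 1, 1 and 8 with AAV-iLuc. Low and high libraries were present in both groups, and the difference was 0.76 ± 0.84 (edgeR adjusted p = 0.490). Among the untested genes, Mmp12 had 6, 2 and 1 counts against 11, 0, 0 and 4, and Mmp10 had 2, 1 and 1 against 14, 1, 1 and 3. These genes were singled out after their values were seen, and AAV-iLuc replicate 1 held the highest count of Mmp10 and Mmp12.

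In the main test no Adam gene rose: 7 of the 11 tested fell and 4 were not past the threshold, beside 23.7% of all tested genes called lower. Adam8 and Adam15 were each called higher under some alternatives. The 8 tested genes with a catalytic motif gave 4 falls, and the 3 neural genes without protease activity all fell. Adam12 (meltrin alpha, with a metalloproteinase domain; ENSMUSG00000054555, chromosome 7, 133484928 to 133833875) was measured at 106, 155 and 163 CPM with AAV-iIL12 and 287, 309, 298 and 298 CPM with AAV-iLuc. The control libraries were tight, and all 3 AAV-iIL12 libraries were lower. It fell by 1.07 on the log2 scale (SE 0.13; edgeR adjusted p = 0.000101). Adam19 (meltrin beta; ENSMUSG00000011256, chromosome 11, 45946819 to 46038170) was measured at 5.73, 5.00 and 4.56 CPM with AAV-iIL12 and 9.20, 9.21, 10.3 and 13.1 CPM with AAV-iLuc. The groups were apart, and it fell by 1.04 on the log2 scale (SE 0.16; edgeR adjusted p = 0.000444).

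Adam9 (ENSMUSG00000031555, chromosome 8, 25439627 to 25506943), the most abundant Adam gene by RPKM, was measured at 194, 231 and 233 CPM with AAV-iIL12 and 304, 337, 342 and 300.5 CPM with AAV-iLuc. All AAV-iIL12 libraries were lower, and it fell by 0.55 on the log2 scale (SE 0.08; edgeR adjusted p = 0.000401). Adam10, a principal sheddase of Notch receptors and cadherins (ENSMUSG00000054693, chromosome 9, 70586279 to 70687511), was measured at 178, 200.4 and 207 CPM with AAV-iIL12 and 232, 223, 224 and 219 CPM with AAV-iLuc. The difference was small against the level, -0.20 ± 0.06 (edgeR adjusted p = 0.0234). It was no longer called without AAV-iIL12 replicate 1 (-0.13, edgeR adjusted p = 0.0840) or without AAV-iLuc replicate 1 (edgeR adjusted p = 0.0509).

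Adam17, which releases tumour necrosis factor and several ligands of the epidermal growth factor receptor, had 116 ± 2.28 CPM (SD, n = 3) with AAV-iIL12 and 126 ± 3.43 CPM (SD, n = 4) with AAV-iLuc. Its difference was -0.11 ± 0.05 (edgeR adjusted p = 0.0680), but with library size only it was -0.20 and called (edgeR adjusted p = 0.00440). With upper quartile scaling it was -0.19 and also called (edgeR adjusted p = 0.00732). Adam15 had 52.1 ± 0.911 CPM against 47.1 ± 2.26 CPM, a difference of 0.15 ± 0.06 (edgeR adjusted p = 0.0582), and edgeR called it higher with median-of-ratios size factors (adjusted p = 0.0487) and without AAV-iLuc replicate 1 (adjusted p = 0.0487). Adam8, a gene of myeloid cells among others, had 3.46 ± 2.09 CPM against 1.97 ± 0.847 CPM with overlapping groups, 0.79 ± 0.42 (edgeR adjusted p = 0.148), and 0.20 without AAV-iIL12 replicate 1. Adam8 was called higher with no low-count filter (0.79, edgeR adjusted p = 0.0409) and with the replicate block (0.72, edgeR adjusted p = 0.0467). The summed CPM of 12 macrophage and monocyte markers was 41.7, 25.4 and 27.0 in AAV-iIL12 and 34.9, 18.0, 15.8 and 18.6 in AAV-iLuc. Without Cd68, the highest, the sums were 20.5, 9.72 and 8.13 against 18.5, 1.21, 1.91 and 4.48 CPM. In AAV-iIL12 replicate 1 was the highest for these markers, Adam8 and Mmp19. Among the controls AAV-iLuc replicate 1 was the highest for the markers, Adam8 (3.07 CPM) and Mmp19 (1.72 CPM). Of those 12 markers 8 were tested and 1, C1qb, rose, and their part in the Adam8 and Mmp19 values was not tested.

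Adam11, Adam22 and Adam23 lack protease activity and bind the secreted LGI proteins in the nervous system. Adam23 fell from 62.4 ± 5.97 CPM (SD, n = 4) to 31.6 ± 0.281 CPM (SD, n = 3), a log2 fold change of -0.98 ± 0.08 (edgeR adjusted p = 9.32e-06). Adam11 fell from 2.86 ± 0.236 to 1.64 ± 0.0910 CPM (-0.80 ± 0.18, edgeR adjusted p = 0.00504). Adam22 fell from 3.60 ± 0.154 to 2.15 ± 0.440 CPM (-0.74 ± 0.18, edgeR adjusted p = 0.00792). The groups did not overlap for any of these 3 genes, as for 26.7% of all tested genes in this direction. The 21 Adam genes with reproductive or little-known roles were not tested, and 15 of them had no count in any library. Of the 13 Adam genes on chromosome 8, 10 had no count and 1, Adam9, was tested.

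**Figure D3:**
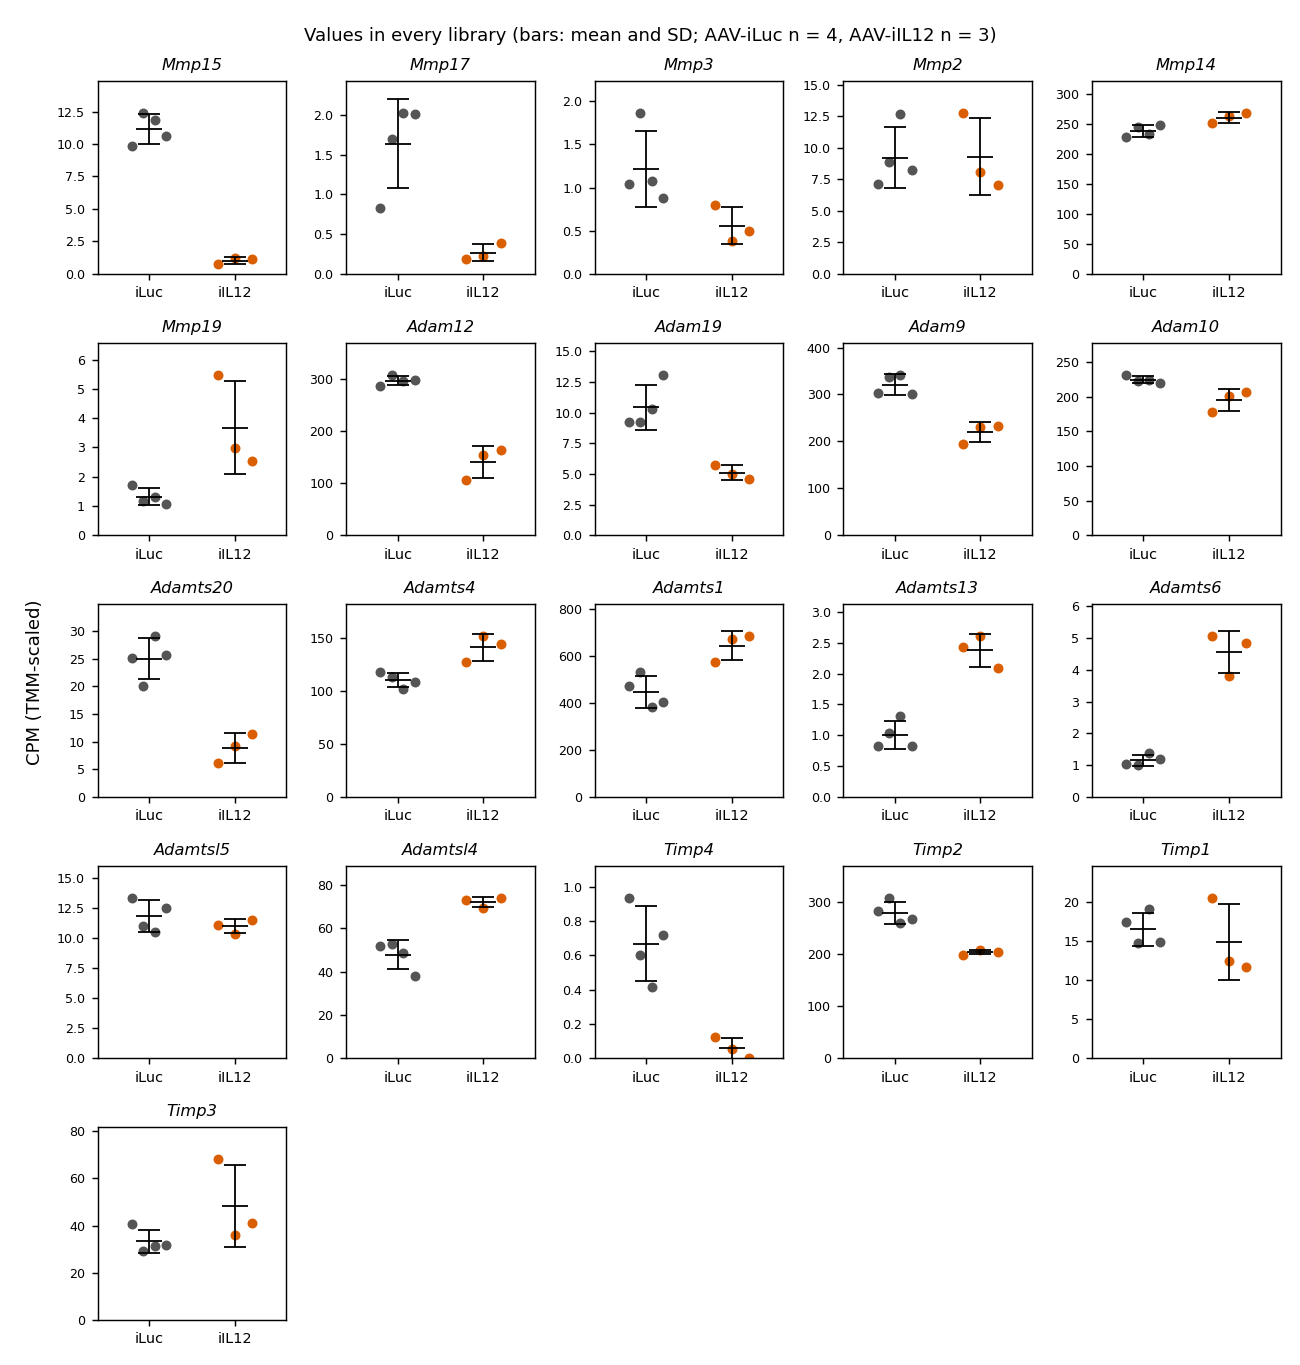
CPM in every library for 21 members, with points for libraries and bars for mean and SD (AAV-iLuc n = 4, AAV-iIL12 n = 3), each panel on its own axis from 0. Mmp15 is near 1 CPM in AAV-iIL12 (0.731, 1.19 and 1.10 CPM) and Adamts6 is higher in all 3 AAV-iIL12 libraries.

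The proteoglycan-cleaving ADAMTS enzymes, which act on versican, aggrecan and related matrix molecules, split: 5 of 7 were tested, 2 rose and 3 fell. Adamts1 (ENSMUSG00000022893, chromosome 16, 85590715 to 85600001) was measured at 574, 674 and 684 CPM with AAV-iIL12 and 472, 533, 381 and 404 CPM with AAV-iLuc. All 3 AAV-iIL12 libraries were above the controls, and it rose by 0.53 ± 0.11 (edgeR adjusted p = 0.00373). Adamts4 (aggrecanase 1; ENSMUSG00000006403, chromosome 1, 171077990 to 171088206) was measured at 128, 152 and 144 CPM with AAV-iIL12 and 118, 113, 102 and 108 CPM with AAV-iLuc. The groups were apart, and it rose by 0.36 ± 0.07 (edgeR adjusted p = 0.00227).

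Adamts20 (ENSMUSG00000022449, chromosome 15, 94168044 to 94363299), mutated in belted mice with a white band from a defect of melanoblasts, was measured at 6.03, 9.23 and 11.3 CPM with AAV-iIL12 and 25.1, 20.1, 29.1 and 25.7 CPM with AAV-iLuc. The groups were apart, and it fell by 1.49 on the log2 scale (SE 0.19; edgeR adjusted p = 0.000155). Adamts1 and Adamts20 moved in opposite directions within the same substrate class, and the RPKM ratio of Adamts1 to Adamts20 was 103 to 161 in AAV-iIL12 and 22.2 to 45.0 in AAV-iLuc. The ratio follows from these changes and is not separate evidence. Adamts5, aggrecanase 2, fell from 4.34 ± 1.26 CPM (SD, n = 4) to 2.19 ± 0.489 CPM (SD, n = 3), -0.99 ± 0.26 (edgeR adjusted p = 0.0114). Adamts9, also an aggrecan- and versican-cleaving enzyme, fell from 15.2 ± 2.18 to 9.19 ± 3.61 CPM, -0.72 ± 0.23 (edgeR adjusted p = 0.0283). The Adamts5 call was lost without AAV-iIL12 replicate 3 (edgeR adjusted p = 0.0532). The Adamts9 call was lost without AAV-iLuc replicate 4 (edgeR adjusted p = 0.0721), and its value was -0.43 without AAV-iIL12 replicate 1.

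Of the remaining ADAMTS enzymes outside the procollagen group, 5 of 9 were tested, 2 rose and 3 fell. Adamts6 (ENSMUSG00000046169, chromosome 13, 104424343 to 104633203), a paralogue of Adamts10, was measured at 5.06, 3.80 and 4.83 CPM with AAV-iIL12 and 1.04, 0.987, 1.37 and 1.19 CPM with AAV-iLuc. It was the member with the largest rise, 1.99 ± 0.20 (edgeR adjusted p = 3.49e-05), and all 3 libraries lay above the controls. Its paralogue Adamts10, which binds fibrillin, fell from 25.2 ± 2.01 CPM (SD, n = 4) to 17.0 ± 1.09 CPM (SD, n = 3), -0.57 ± 0.09 (edgeR adjusted p = 0.000471).

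Adamts13 (ENSMUSG00000014852, chromosome 2, 26863428 to 26899640), which cuts von Willebrand factor, was measured at 2.44, 2.61 and 2.09 CPM with AAV-iIL12 and 0.832, 1.04, 1.31 and 0.825 CPM with AAV-iLuc. All values were low, the groups were apart, and it rose by 1.25 ± 0.24 (edgeR adjusted p = 0.00177). Adamts7 and Adamts12 form a closely related pair, and both fell. Adamts12 went from 25.6 ± 1.33 to 15.5 ± 2.44 CPM (-0.72 ± 0.10, edgeR adjusted p = 0.000343), and Adamts7 from 1.72 ± 0.229 to 0.889 ± 0.201 CPM (-0.95 ± 0.26, edgeR adjusted p = 0.0125). The Adamts7 call was lost without AAV-iIL12 replicate 3 (edgeR adjusted p = 0.0587). Of the procollagen N-propeptidases, which trim fibrillar procollagens, Adamts14 had a log2 difference of -0.54 ± 0.20 (edgeR adjusted p = 0.0534) and Adamts2 one of 0.04 ± 0.40 (edgeR adjusted p = 0.938), and Adamts3 was not tested. Adamts14 was called lower under 7 of the 15 alternatives, among them without AAV-iIL12 replicate 2 (-0.82, edgeR adjusted p = 0.00708), and its difference was -0.35 without AAV-iIL12 replicate 1 (edgeR adjusted p = 0.173).

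Of the ADAMTS-like genes, 4 of 5 were tested, 1 rose and 1 fell. Adamtsl4 (ENSMUSG00000015850, chromosome 3, 95583511 to 95595228), whose protein binds fibrillin microfibrils, was measured at 73.0, 69.5 and 74.0 CPM with AAV-iIL12 and 51.8, 52.8, 48.5 and 37.9 CPM with AAV-iLuc. The groups were apart, and it rose by 0.60 ± 0.10 (edgeR adjusted p = 0.00086). Adamtsl5, the next most abundant, was measured at 11.1, 10.4 and 11.5 CPM with AAV-iIL12 and 13.4, 11.0, 10.5 and 12.5 CPM with AAV-iLuc, with overlap and a difference of -0.11 ± 0.11 (edgeR adjusted p = 0.435). Adamtsl2 fell from 4.08 ± 0.896 to 2.21 ± 0.763 CPM (-0.87 ± 0.26, edgeR adjusted p = 0.0192), although the groups overlapped. This call was lost without AAV-iIL12 replicate 1, AAV-iIL12 replicate 2 or AAV-iLuc replicate 3, with adjusted p from 0.00319 to 0.0707 over the alternatives.

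All 4 inhibitors were tested: Timp2 and Timp4 fell, Timp3 rose and Timp1 was not past the threshold. Timp2 (ENSMUSG00000017466, chromosome 11, 118191887 to 118246566), which also takes part in activation of MMP2 by MT1-MMP, was measured at 199.7, 208 and 205 CPM with AAV-iIL12 and 284, 309, 260.3 and 268 CPM with AAV-iLuc. The groups were apart, and it fell by 0.46 on the log2 scale (SE 0.07; edgeR adjusted p = 0.000364). The RPKM ratio of Timp2 to Mmp14 was 1.07 to 1.12 in AAV-iIL12 and 1.51 to 1.77 in AAV-iLuc. This ratio follows from the lower Timp2 and slightly higher Mmp14 values and is not separate evidence.

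Timp4 (ENSMUSG00000030317, chromosome 6, 115218853 to 115229166) had 3 counts over the AAV-iIL12 libraries and 50 over the AAV-iLuc libraries. Per library it was measured at 0.122, 0.0543 and 0 CPM and 0.936, 0.603, 0.417 and 0.722 CPM. The level in AAV-iLuc was 12.0 times that in AAV-iIL12 (exact 95% interval 3.88 to 60.1, which covers counting error only), with edgeR adjusted p = 0.00156. The gene is too low to be tested under 4 of the 15 alternatives.

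Timp3 (ENSMUSG00000020044, chromosome 10, 86136236 to 86185370), a matrix-bound inhibitor that also blocks ADAM17 and ADAMTS enzymes, was measured at 68.1, 35.8 and 41.0 CPM with AAV-iIL12 and 40.5, 29.4, 31.3 and 31.9 CPM with AAV-iLuc. AAV-iIL12 replicate 1 was the highest and the groups overlapped. The rise of 0.53 ± 0.20 was at the edge of the threshold (edgeR adjusted p = 0.0493), was lost under 8 of the 15 alternatives, and was 0.21 without AAV-iIL12 replicate 1. The RPKM ratio of Timp3 to Adam17 was 0.271 to 0.523 in AAV-iIL12 and 0.207 to 0.284 in AAV-iLuc, with overlap. Timp1 (ENSMUSG00000001131, chromosome X, 20736405 to 20740974) was measured at 20.5, 12.4 and 11.6 CPM with AAV-iIL12 and 17.4, 14.7, 19.1 and 14.8 CPM with AAV-iLuc. The groups overlapped, and the difference of -0.15 ± 0.19 (edgeR adjusted p = 0.534) became -0.45 and was called without AAV-iIL12 replicate 1 (edgeR adjusted p = 0.0191). That library had 180 CPM of summed fibroblast markers and 41.7 CPM of summed macrophage and monocyte markers, each the highest of its group. Over all libraries the fibroblast sum was highest in AAV-iLuc replicate 3 (306 CPM), where Timp1 was at 19.1 CPM and Timp3 at 31.3 CPM. Among the controls AAV-iLuc replicate 1 had the highest macrophage and monocyte sum (34.9 CPM) and the highest Timp3 value. The part of these cell types in the Timp1 and Timp3 values was not tested.

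**Figure D4:**
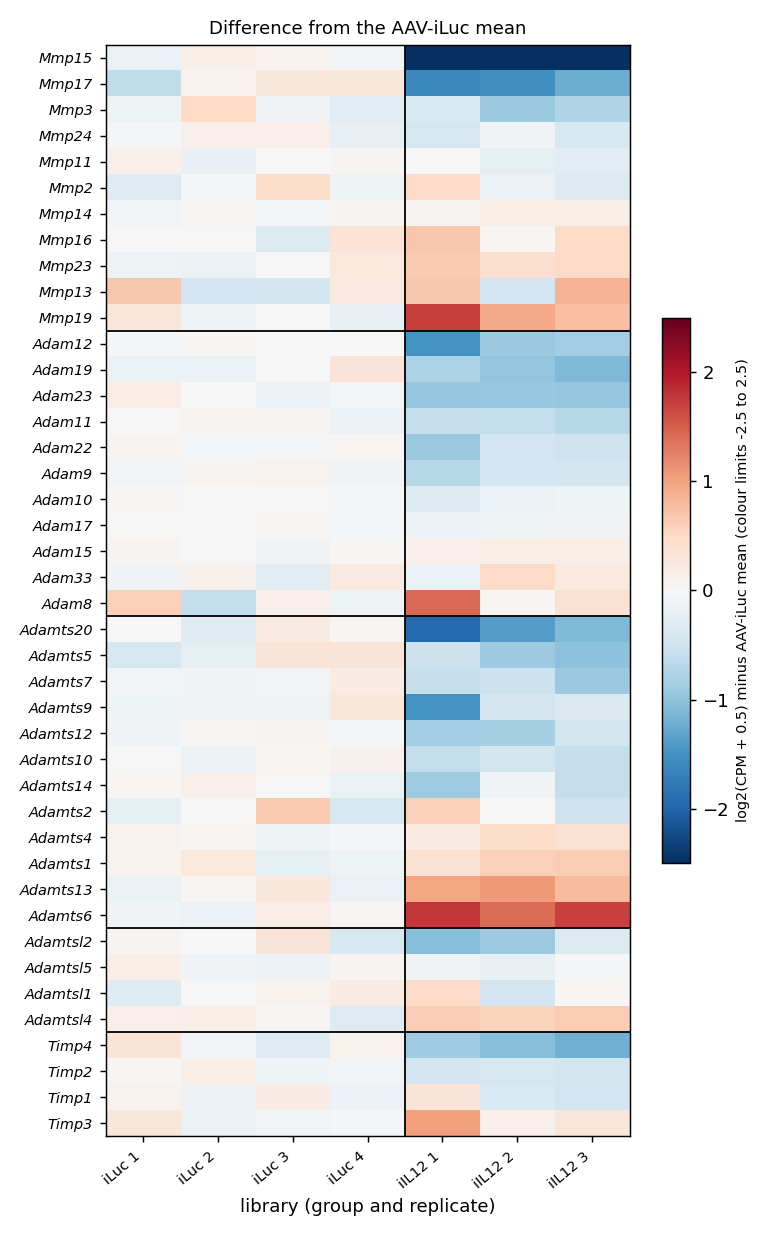
Log2(CPM + 0.5) of the 42 tested members in every library, centred on the AAV-iLuc mean of each gene, with colour limits of -2.5 and 2.5 and lines between subfamilies and groups. Blue rows across the 3 AAV-iIL12 columns mark the genes that were lower there, with Mmp15 beyond the colour limit.

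The 41 untested members were low in all libraries. Of these 19 had no count, 12 had 1 to 6 counts in total over the 7 libraries, and 10 had more, up to 47 for Adam1a. Mmp9, gelatinase B of myeloid and invasive cells, had 9 counts over the 3 AAV-iIL12 libraries and 18 over the 4 AAV-iLuc libraries. The low-count filter removed these genes before the test. Without that filter 64 members were tested, of which 8 rose and 20 fell.

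Among 30 activators and regulators of these enzymes 24 were tested, 7 rose and 7 fell (4 fell without AAV-iIL12 replicate 2), with a median log2 fold change of 0.11. Furin, which cuts the prodomain from membrane-type MMPs and ADAMs, rose by 0.62 ± 0.06 (edgeR adjusted p = 2.04e-05). Plau, the urokinase of the plasmin cascade, rose by 1.58 ± 0.17 (edgeR adjusted p = 5.16e-05), and Lrp1, the endocytic receptor that clears MMPs and TIMPs, by 0.91 ± 0.06 (edgeR adjusted p = 3.03e-06). Bsg, the MMP inducer also called CD147 and the most abundant of the list, had a log2 difference of 0.09 ± 0.06 (edgeR adjusted p = 0.241). Chosen after their values were seen, Reck, a membrane-anchored MMP inhibitor, rose by 0.35 ± 0.08 (edgeR adjusted p = 0.00511), and the ADAM10-binding tetraspanins Tspan14 and Tspan15 fell by 0.38 and 0.96 on the log2 scale (edgeR adjusted p = 0.00096 and 0.000331). Rhbdf1, an iRhom needed for maturation of ADAM17 and chosen in the same way, changed by -0.39 ± 0.13 (edgeR adjusted p = 0.0284). Values of the other listed tetraspanins and of Rhbdf2 are not given here, so no shared direction is read from these genes.

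Among 22 other extracellular and membrane metallopeptidases 9 were tested, 1 rose and 3 fell, with a median of -0.03. Bmp1, the procollagen C-proteinase, rose by 0.51 ± 0.09 (edgeR adjusted p = 0.000939). Mme (neprilysin) fell by 1.91 (edgeR adjusted p = 0.00511) and Anpep (aminopeptidase N) by 0.57 (edgeR adjusted p = 0.00523) on the log2 scale, while Cpe, a prohormone carboxypeptidase, had a log2 difference of 0.06 ± 0.07 (edgeR adjusted p = 0.531). Of 42 genes listed as substrates of shedding, 34 were tested, 13 rose and 10 fell, with a median of 0.06. Notch1, cut by ADAM10, rose by 2.21 ± 0.14 (edgeR adjusted p = 3.03e-06) and Tnfrsf1a, a receptor shed by ADAM17, by 0.66 ± 0.05 (edgeR adjusted p = 8.30e-06). Tgfa, an ADAM17 ligand substrate, fell by 1.30 (edgeR adjusted p = 6.85e-06) and Met by 0.30 (edgeR adjusted p = 0.0158) on the log2 scale.

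Of 44 matrix substrates 36 were tested, 4 rose and 12 fell, with a median of -0.08, and 7 rose without AAV-iLuc replicate 3. The basement membrane genes Col4a1 and Col4a2 fell by 0.65 and 0.61 on the log2 scale (edgeR adjusted p = 1.14e-05 and 8.62e-05), and Hspg2, which encodes perlecan, fell by 0.89 (edgeR adjusted p = 6.80e-05). Sparcl1, a matricellular protein and the most abundant of the list, rose by 0.37 ± 0.09 (edgeR adjusted p = 0.00826). All lists were read beside 23.5% of tested genes called higher and 23.7% called lower.

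Marker levels for the sort were led by the melanocyte list, whose 10 genes summed to 30530 to 31434 CPM with AAV-iIL12 and 24786 to 28229 CPM with AAV-iLuc, and 6 of them rose. The sums of several lists of other cell types also stood apart between the groups. The 10 endothelial genes summed to 22.5 to 34.5 CPM with AAV-iIL12 and 34.8 to 41.4 CPM with AAV-iLuc (7.86 to 8.63 and 13.8 to 16.8 CPM without Vwf, the highest), 2 were tested and 1, Egfl7, fell, and 4 (Cdh5, Cldn5, Emcn and Tie1) had no count in any library. The 10 pericyte and smooth muscle genes summed to 17.4 to 20.7 CPM against 24.1 to 26.2 CPM (12.6 to 16.5 and 15.7 to 17.8 CPM without Cspg4), and of 6 tested 1 rose and 2 fell. The 10 genes of all leukocytes summed to 361 to 376 CPM against 302 to 332 CPM (41.8 to 44.8 and 27.5 to 50.6 CPM without Arhgdib), and of 8 tested 1 rose. The keratinocyte list summed to 3.52 to 4.39 CPM against 1.91 to 2.80 CPM, nearly all from Sfn, which rose, and 6 of its 10 genes had no count. Sums of the neutrophil list stayed at or under 1.37 CPM, with 4 of 10 genes at 0, and those of the T and NK cell list at or under 2.32 CPM. The part of these markers in the members' values was not tested.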

How the data were processed

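Gene counts of 7 libraries were used as deposited, 1 file a library. Per the file headers, fragments were counted with featureCounts 1.6.0 over exons of GENCODE vM32 with reverse-stranded, paired settings; FastQC 0.11.8, STAR 2.7.9a, GRCm39, edgeR and limma are named in the submitters' processing notes. Symbols came from GENCODE vM21 by identifier (52029 of 56953 matched, 99.4% of counts). Groups came from the treatment labels, and the design text counts libraries as mice. Counts were tested in R 4.3.3 with edgeR 4.0.16 (quasi-likelihood F test, TMM, filterByExpr, Benjamini-Hochberg over 13990 genes, threshold 0.05); the standard error is derived from the F statistic. RPKM used the exon length in the files. The test was also run on simulated counts in which far fewer genes changed than were called here, and no conclusion is drawn from that run. Alternatives were other scalings, filters, DESeq2 1.42.0, limma-voom (limma 3.58.1), a replicate block and each library left out.

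Members with values in every library were those called with an absolute log2 fold change of at least 1, all Timp genes and the 2 of each subfamily with the highest mean RPKM; other called members are given as group means. From each list, the 3 called genes of smallest p and the gene of highest RPKM are named. Members, lists and markers were chosen with earlier results of these data known. Upstream regions came from RefSeq on GRCm38.p6 and were not joined to GRCm39 coordinates.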

Additional observations from a re-analysis of the deposited data

Results flagged for a closer look

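Single libraries that stood far from the rest of their group were looked for in the 42 tested members, in the AAV-iLuc group of 4, and 2 were found. Chance flags about 1 in 20 members, so 2 of 42 is near the chance rate. Adamts7 stood at 2.06 CPM in AAV-iLuc replicate 4, the highest of that group (1.61, 1.59, 1.61 and 2.06 CPM). Adamts9 stood at 18.5 CPM in AAV-iLuc replicate 4, also the highest (14.1, 14.2, 14.1 and 18.5 CPM), and its call was lost without that library.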

How the results depend on the processing

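Of the 27 called members, 19 kept their call and none changed sign under all 15 alternatives that gave a value, and 8 lost it in at least 1; of the 15 uncalled, 7 gained a call in at least 1. Members that rose numbered 6 to 9 and members that fell 16 to 18 as single libraries were left out. With library size only, 6 rose and 21 fell, and with upper quartile scaling 7 rose and 21 fell; over all genes these gave 2506 higher against 4460 lower (36.0% higher) and 2650 against 4225 (38.5%), beside 3292 against 3316 (49.8%). Uncalled genes changed sign: Adamts2 (library size -0.046, upper quartile -0.027, block -0.13, left-out libraries -0.38 to 0.39), Adamtsl1 (-0.021, -0.0032, limma-voom -0.045, -0.40 to 0.42), Mmp2 (-0.080, -0.062, limma-voom -0.0039, block -0.041, -0.28 to 0.20), Bsg (library size -0.000604) and Cpe (-0.033, -0.015). Leaving out libraries gave 4 to 7 falling activators and regulators (4 without AAV-iIL12 replicate 2) and 3 to 7 rising matrix substrates (7 without AAV-iLuc replicate 3); with no filter 7 matrix substrates and 2 other metallopeptidases rose. The cause was not tested. Same-numbered libraries correlated at 0.0876, 0.0337 and -0.0485 in their deviations, and not every library correlated best with its own number, so the numbers were not taken as pairs; with the replicate block 9 members rose and 16 fell, Adam10, Adamts5, Adamts7 and Mmp3 were not called and Adam8 and Adamts14 were. Counts of a few fragments limit Timp4 and the 41 untested members.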
